A study of Drosophila melanogaster with 4 samples.

Results

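The genes described here are the 72 nuclear genes of the mitochondrial ribosome whose symbols begin with mRpL or mRpS and a number, picked by that pattern alone from the 14935 genes measured. Mitochondria have their own ribosome, which translates the few proteins encoded in mitochondrial DNA, all of them parts of the respiratory chain and ATP synthase. Its proteins are encoded in the nucleus, made on cytosolic ribosomes and imported, and they form a large subunit, which joins amino acids, and a small subunit, which reads the mRNA. Photoreceptors of the fly eye are known for a high demand for ATP, and the cone cells above them are non-neuronal cells that secrete the lens and support them.

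Sorted cells of the Drosophila melanogaster eye were sequenced as 1 library per condition: cone cells (CCs) of wandering larvae, CCs of pupae at 25 h after puparium formation, CCs of adults aged 1 to 2 days, and photoreceptors (PRs) of adults of the same age. Each library pooled the eye tissue of 45 to 75 animals. The CCs of both younger stages were taken by their GFP from animals that carried prosPSG-GFP, a reporter driven by an eye enhancer of prospero, with TM2/TM6B balancers, and that lacked the R7 photoreceptor through a sev mutation. Adult CCs came from yw67; sp/CyO; TM2/TM6B flies and were sorted with antibodies, Fas3 being the one for CCs, whereas PRs were sorted from adult prosPSG-GFP retinas as cells with RFP, from a 3xP3-RFP transgene that marks PRs, and without GFP. Stage, genotype and the way of sorting changed together between some of these groups and cannot be told apart. No test across replicates could be made with single libraries. A gene was therefore called by size alone, at a difference of 2 (the 4-fold rule) or 1 (the 2-fold rule) on the log2(value + 4) scale, if its higher library had at least 32 units. A unit is a TMM-normalized read count on the linear scale, not divided by gene length. Where 4 values are given without names, their order is larval, pupal and adult CCs and then PRs.

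The libraries held 8997 to 12649 genes above 0. The spacing of low values put 1 read at an estimated 0.597, 0.634, 0.854 and 1.66 units, or about 1598000 reads in PRs to 3810000 in adult CCs. Between 36.9% and 65.8% of low values lay on whole multiples of that spacing, so read numbers and the intervals made from them are rough. All 9 photoreceptor markers were 4-fold lower in the adult CC library than in the PR library, and 5 of 6 cone cell markers were 4-fold higher. The other one, pros, was at 1375, 844.5, 19.4 and 33.2 units, and so was low in both adult libraries. Of the photoreceptor markers ninaE, the main rhodopsin gene, was at 0 in both younger CC libraries and at 2.61 units in adult CCs, but the neuronal gene elav was at 1722, 1872, 428.8 and 1918 units and norpA at 425.5, 483.7, 1466 and 42540. Of the cone cell markers the crystallin gene Crys, which belongs to the mature lens, was at 0 in the larval and at 4.44 units in the pupal library. The summed level of 10 genes of dividing cells was 4093, 598.8, 85.7 and 48.1 units, and that of 5 hemocyte markers 8.36, 360.2, 208.0 and 18.0 units. Summed over 5 pigment cell markers the level was 72.2, 122.3, 95069 and 12113 units, or 2.92% of the adult CC total. Nearly all of the adult CC sum came from Pdh at 94871 units. The other members had unlike courses. ninaG was at 0, 12.7, 4.27 and 233.7 units and santa-maria at 0, 9.34, 59.5 and 379.1. Gs1 was at 8.96, 31.1, 104.7 and 66.4 units and w at 60.9, 53.4, 29.3 and 28.0. Over 5 muscle markers the summed level was 99.3, 378.3, 441.2 and 41.5 units. Over 3 bristle markers it was 1281, 1498, 116.4 and 5673 units, mostly from futsch, which neurons also express. Of the hemocyte markers He was at 0 throughout, and eater and NimC1 were also at 0 at the larval stage. From pupal to adult CCs Pxn went from 224.2 to 7.69 units and eater from 20.8 to 14.7. Hml went the other way, from 102.5 to 150.6 units, as did NimC1, from 12.7 to 35.0. The 5 glia markers summed to 152.0, 242.0, 278.4 and 350.5 units. The 4 fat body markers summed to 2.39, 62.9, 109.9 and 124.5 units. The part of these other cells in the levels below was not tested, and in bulk RNA fewer cells of a type and less RNA per cell cannot be told apart.

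The mRp genes were expressed at low levels in all 4 libraries. The median gene was at 11.8, 15.7, 10.2 and 16.6 units, and even in pupal CCs, the library with the most mRp reads, this was about 24.8 reads. Under 10 estimated reads were 19 of the 72 genes at the larval stage, 13 at the pupal stage, 30 in adult CCs and 34 in PRs. The medians lay at the 28.2nd, 41.4th, 34.7th and 32.4th percentiles of all genes detected in the same library. The median gene of the cytosolic ribosome, with 92 genes measured, was far higher, at 321.8, 378.3, 367.0 and 557.2 units. Transcripts of both groups are short, with a median of 0.779 kb for the mRp genes and 0.871 kb for the cytosolic ones, against 1.77 kb for all genes above 0.

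Few members stood above 32 units. At the larval stage 11 of the 72 reached that level, at the pupal stage 15, in adult CCs 11 and in PRs 12. Over all libraries 24 members reached it at least once, 48 never did, and mRpS5 was the single member that reached it in all 4. At the other end 62 members were above 0 in all 4 libraries, and 10 were listed at 0 in at least 1. A value of 0 in a CC library can still hold 1 read, since only normalized counts above 1 are listed, whereas 1 read in PRs would appear. The plot of levels by library shows this arrangement gene by gene.

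**Figure D1:**
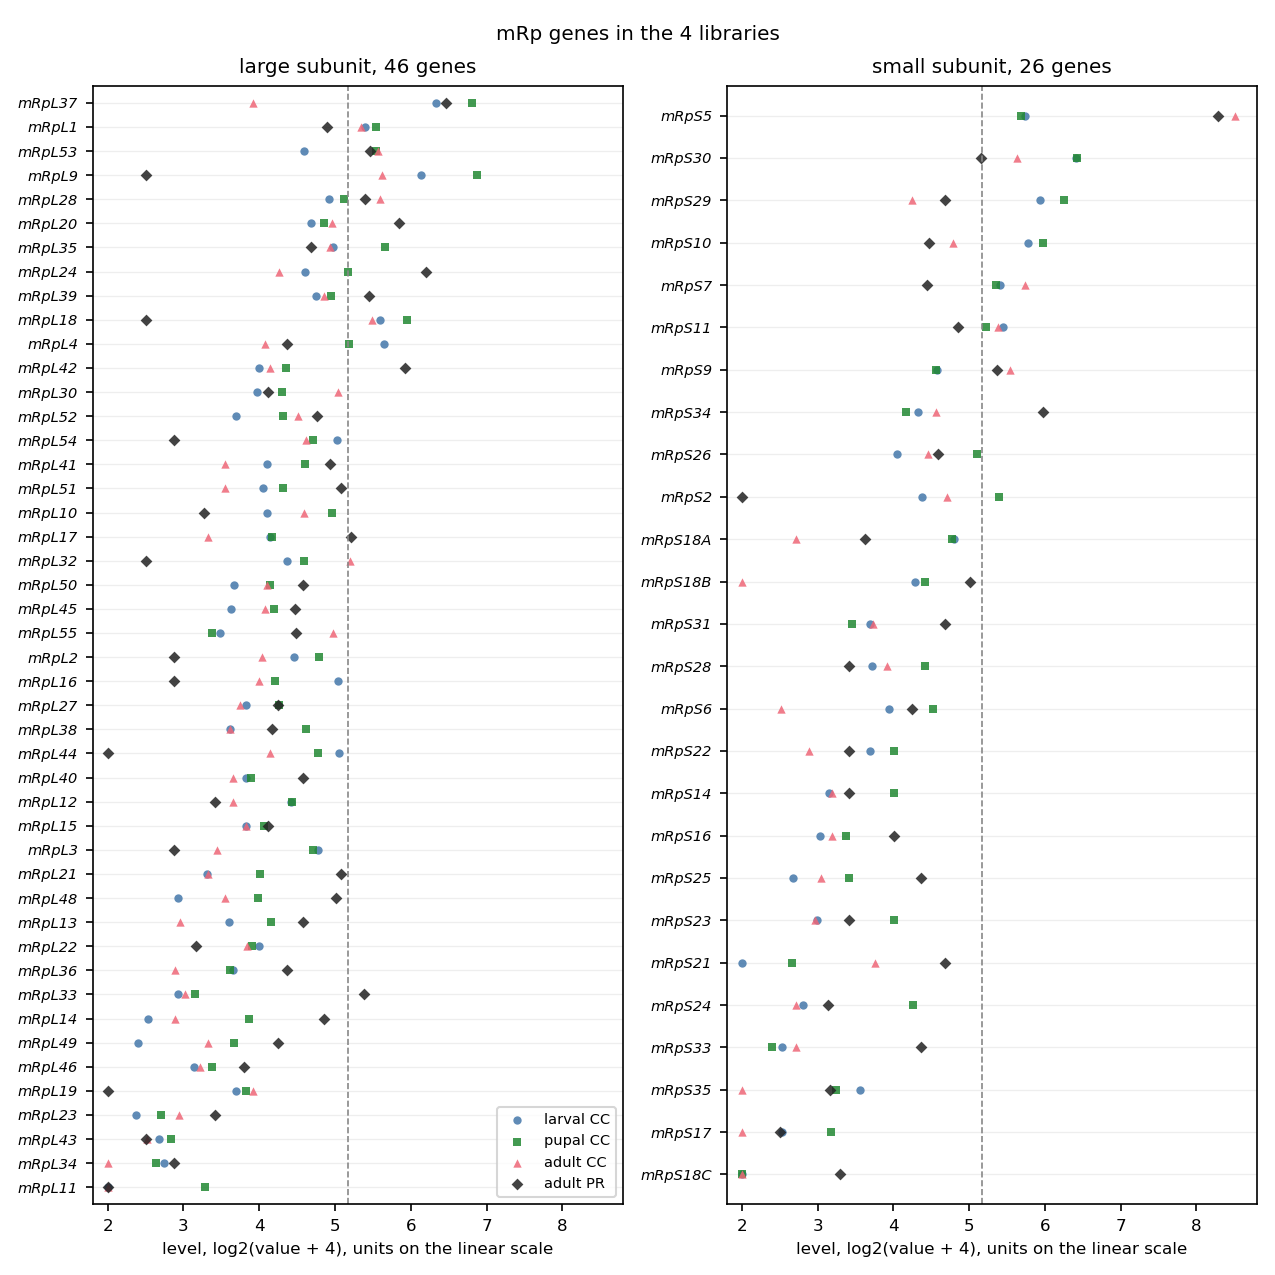
Level of each mRp gene in the 4 libraries, on the log2(value + 4) scale, with the genes of each subunit ordered by their mean over the libraries and 1 point per library. The dashed line marks 32 units. Most points lie left of it, mRpS5 stands apart in both adult libraries, and the PR points are spread to both sides of the CC points.

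Added over the 72 genes, the mRp level was 1274 units at the larval stage (1221 to 1330, 95% Poisson interval of the estimated reads), 1627 at the pupal stage (1565 to 1692), 1391 in adult CCs (1324 to 1460) and 1643 in PRs (1543 to 1749). The intervals of the pupal and PR libraries overlapped throughout, and those of the larval and adult CC libraries just met. They cover counting error alone and no variation between animals or preparations. As a part of the library total, the genes took 0.0861% at the larval stage (0.0825 to 0.0899, exact binomial), 0.0890% at the pupal stage (0.0856 to 0.0926), 0.0427% in adult CCs (0.0407 to 0.0449) and 0.0619% in PRs (0.0581 to 0.0659). The totals differ in make-up, since the 10 most abundant genes held 5.74%, 6.27%, 20.2% and 20.8% of them. The order rests on them: without the 100 most abundant genes of any library the shares were 0.117%, 0.125%, 0.0787% and 0.129%, with PRs highest and adult CCs lowest. Cytosolic ribosomal proteins summed to 39.7, 31.3, 34.9 and 35.6 times the mRp level.

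One gene carried much of the sum in the adult libraries. mRpS5, whose bacterial relative S5 lies beside the mRNA channel of the small subunit, was at 49.1, 47.6, 361.1 and 308.1 units. Both adult libraries were thus far above both younger ones, and CCs and PRs differed little. It made up 3.85% and 2.93% of the summed mRp level at the larval and pupal stages but 26.0% in adult CCs and 18.8% in PRs. Without it the sums were 1225, 1580, 1029 and 1335 units, or 0.0828%, 0.0864%, 0.0316% and 0.0503% of the totals, and adult CCs were lowest by either measure. The cytosolic sum was then 41.3, 32.3, 47.1 and 43.8 times the mRp sum, so the adult ratios given above depended on mRpS5.

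Between the larval and the pupal stage the mRp genes differed little. Of the 15 members that reached 32 units in either library, 0 passed the 4-fold rule, which called 11.2% of all genes at that level higher in pupae and 2.59% lower. The 2-fold rule called 1 member higher and 0 lower, against 21.8% and 7.89% of all genes. That member was mRpS2, a conserved protein of the small subunit, at 16.7 units in larvae and 38.0 in pupae, a difference of 1.02. The ratio was 2.27 (1.43 to 3.70, 95% interval of the estimated reads), so it was just past the limit. The next largest differences were 0.95 for mRpL53, from 20.1 to 42.6 units, 0.73 for mRpL9, from 66.6 to 113.0, and 0.70 for mRpL35, from 27.3 to 46.8. Reads of mRpL53 cannot be told apart from those of its neighbours, since all of its exons lie within those of AGO1 on the opposite strand and CG33155 on the same one, and strand handling was not given in the sources used here. In the reference annotation 42 of the 72 members, mRpL53 included, have exons touched by another gene, 39 of them on the opposite strand only, and 2 are overlapped over at least 50% of their exons. The exons of mRpS2 are overlapped over 6.60%, and its call was lost with each of the 3 other scalings tried.

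Over all 72 genes the median difference of pupal minus larval CCs was 0.29, and over all genes measured it was 0.35. Among the 58 members that reached 8 units in either library it was 0.31, with 0.38 for the 9297 genes chosen the same way. Of the 71 members that differed, 74.6% were higher in pupae, as were 72.7% of all genes that differed. The members were therefore placed close to the middle of the whole table. The members with the lowest differences at 32 units or more were mRpL4, from 46.0 to 32.4 units, mRpS11, from 39.5 to 33.5, and mRpS7 and mRpS5, which moved by -0.04 each.

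Between the pupal and the adult stage of CCs most members had lower values. The median difference was -0.45 over the 72 genes and 0.00 over all genes, and among the 60 members at 8 units or more it was -0.51, with -0.05 for all genes chosen the same way. Of the 71 members that differed 76.1% were lower in adults, against 54.4% of all genes that differed. Scaling the libraries to equal totals moved the median of all genes from -0.05 to -0.85 and that of the members to -1.14. The gap between the medians held its sign: it was -0.46 with the deposited scaling and -0.29 with equal totals. By the 4-fold rule 1 of the 18 members at 32 units or more was higher in adult CCs and 2 were lower, where 14.3% and 13.5% of all genes were called. At 2-fold 1 was higher and 5 were lower, or 5.56% and 27.8%, against 28.9% and 25.4% of all genes, so the share called lower was close to that of all genes.

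The member past 4-fold on the higher side was mRpS5, with a difference of 2.82 and a ratio of 7.58 (5.93 to 9.85) of adult to pupal CCs. Its exons overlap no other gene in the reference annotation, which no longer holds its listed ID and to which it was matched by symbol. The next were mRpS9, at 19.7 and 42.7 units, with a difference of 0.98 that fell short of 2-fold, mRpL32, at 20.1 and 32.8, and mRpL28, at 30.6 and 44.4. mRpL55, a mitochondrion-specific protein, went from 6.34 to 27.3 units, a ratio of 4.31 (2.07 to 9.83), but stayed under 32 units in all libraries and so was not called.

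The 2 members past 4-fold on the lower side were mRpL37 and mRpS29. mRpL37, a protein with no bacterial counterpart, was at 76.9, 108.5, 11.1 and 84.6 units. Its exons overlap no other gene. Its adult CC level stood well below the other 3 libraries, and its pupal level was 9.77 times the adult one (5.56 to 18.7). mRpS29, a GTP-binding protein known in mammals as a death-associated protein, was at 57.2, 72, 15.0 and 21.8 units. Both adult libraries were low for it, and its pupal level was 4.81 times that of adult CCs (2.85 to 8.22), with a difference of -2.00 at the very limit and an overlap with another gene over 4.51% of its exons. At 2-fold they were joined by mRpL9, at 113.0 and 45.4 units, mRpS10, at 59.0 and 23.5, and mRpL4, at 32.4 and 12.8, with differences of -1.25, -1.20 and -1.12.

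Over the 3 CC stages, 44 members had their highest value in pupae, 11 in larvae and 16 in adults, and mRpS18C was listed at 0 in all 3. That is a pupal maximum for 62.0% of the 71 members above 0, against 42.2% of the 13305 genes above 0 in a CC library. The count was made with the deposited scaling alone.

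The adult cell types differed more among the members than the CC stages did. Over all 72 the median difference of adult CCs minus PRs was -0.44, while that of all genes was 0.33. Among the 60 members at 8 units or more it was -0.42, with 0.67 for all genes chosen the same way. Of the 71 members that differed 62.0% were lower in adult CCs, against 30.9% of all genes that differed. The gap between the medians was -1.09 with the deposited scaling, -0.99 with equal totals and -0.96 with a median ratio of 0 over genes at 8 units or more in all libraries.

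By the 4-fold rule 3 of the 19 members at 32 units or more were higher in adult CCs and 2 were lower, where 21.9% and 11.5% of all genes were called. At 2-fold 4 were higher and 6 lower, or 21.1% and 31.6%, against 42.2% and 20.4% of all genes. These are shares of 19 genes, and their difference from the table was not tested. The 9 other members at 32 units or more passed neither rule.

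The 3 members past 4-fold on the side of adult CCs share a value of 1.66 units in PRs, which is 1 estimated read. mRpL9 was at 66.6, 113.0, 45.4 and 1.66 units. mRpL18 was at 44.2, 57.8, 41.0 and 1.66 units, and mRpL32 at 16.7, 20.1, 32.8 and 1.66. Each was at 16.7 units or more at every CC stage and at the limit of detection in PRs. Their ratios of adult CCs to PRs were 27.3 for mRpL9, with 4.69 as the lower bound of the 95% interval, 24.7 for mRpL18, with 4.23, and 19.8 for mRpL32, with 3.30, and with a single PR read the upper bounds were at least 792.2. All 3 have exons overlapped on the opposite strand, over 0.630%, 5.54% and 3.98% of their length, so no 4-fold call on this side was left without overlapped members. None was left either with an added constant of 16 or a limit of 64 units, and with equal totals the count was 1. mRpS7, a conserved protein of the small subunit, was at 38.3, 37.1, 49.4 and 17.8 units, and its difference of 1.29 passed 2-fold.

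Of the members called lower in adult CCs than in PRs, mRpL37 was described above, and PRs held 7.62 times its adult CC level (4.09 to 15.3). mRpL33, at 0.349 kb among the shortest members, was at 3.58, 4.92, 4.12 and 37.7 units, so PRs stood alone above 3 like CC libraries. The PR level was 9.17 times that of adult CCs (3.32 to 30.1), values that rest on about 23 and 5 reads. Neither mRpL37 nor mRpL33 overlaps another gene, and both 4-fold calls were lost with an added constant of 16. The other 4 passed 2-fold without reaching 4-fold, and all have overlapped exons, over 23.6% for mRpL17 and at most 5.71% for the rest. They were mRpL24, at 20.3, 32.1, 15.2 and 69.7 units, mRpL17, at 13.7, 14.1, 5.98 and 33.2, mRpL42, at 11.9, 16.5, 13.7 and 56.4, and mRpS34, at 16.1, 13.9, 19.6 and 58.6. In each of these 4 genes, too, the PR value was above every CC value, with differences of -1.94 for mRpL24, -1.90 for mRpL17 and -1.77 for mRpL42. The plot of the 3 comparisons sets these genes against the other members.

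**Figure D2:**
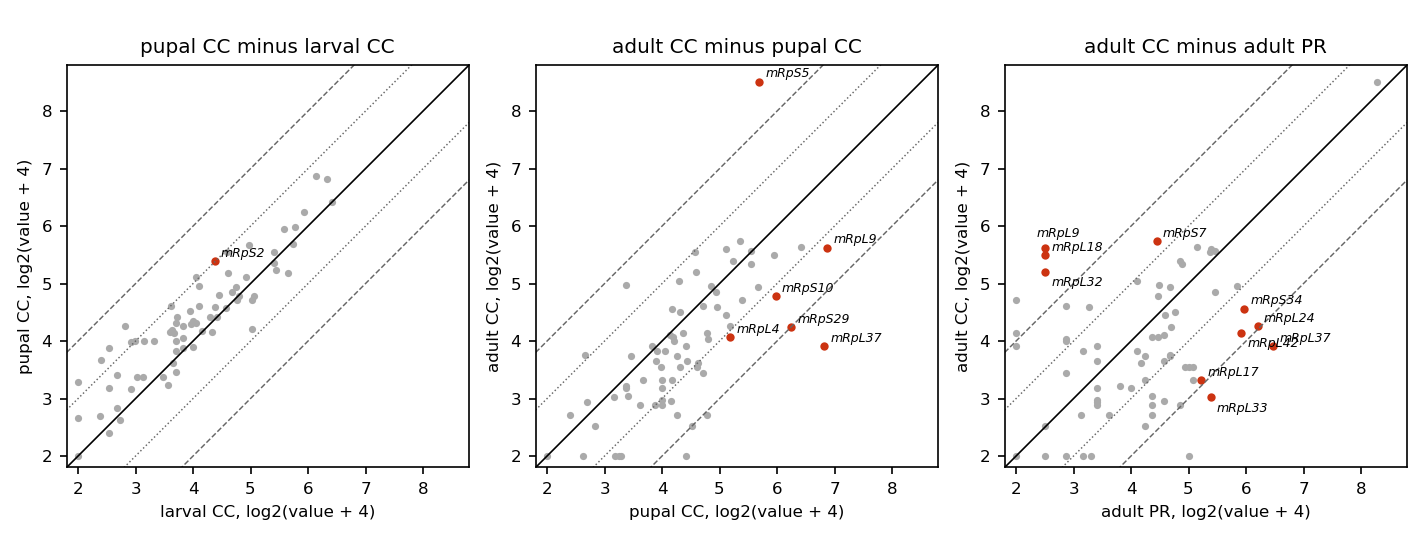
Levels of the 72 mRp genes in the libraries of each comparison, on log2(value + 4) scales, with 1 point per gene. The solid line marks equal levels, dotted lines 2-fold and dashed lines 4-fold differences, and named red points are members past the 2-fold rule. Points lie close to the line for larvae and pupae, mostly below it for pupal and adult CCs, and far to both sides of it for the adult cell types.

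The relative order of the members was kept between larvae and pupae and less so elsewhere. Across the 72 genes Pearson's r of log2(value + 4) was 0.91 between the larval and pupal libraries, 0.70 and 0.68 between adult CCs and those stages, 0.40 between adult CCs and PRs, and 0.25 between PRs and both younger stages. Without mRpS5 the value for adult CCs and PRs was 0.25. These describe genes that share libraries and low counts, and genes are not independent replicates. For the 92 cytosolic ribosomal protein genes r was 0.93 between adult CCs and PRs, and for 88 genes of oxidative phosphorylation it was 0.90. The lists differ in level, and r was not adjusted for that. The SD of the differences between these libraries was 1.30 for the mRp genes, 1.21 for oxidative phosphorylation and 0.83 for the cytosolic genes. Apart by 1 or more were 30 of the 72 mRp genes, 51 of the 88 and 30 of the 92.

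The SD of the members' differences was 0.46 between larvae and pupae, 0.88 between pupal and adult CCs and 1.30 between adult CCs and PRs. The SD estimated for counting error alone was 0.32, 0.35 and 0.45 in the same order, and it was not taken out of these values. Of the 72 members, 8 differed by 1 or more between larvae and pupae, 21 between pupal and adult CCs and 30 between adult CCs and PRs, at any level. The RNA was amplified before library preparation, and the part of amplification in this spread was not tested.

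Each gene was also set against the median member of its own library. The 6 members whose place varied most over the 4 libraries were mRpL9, with a range of 4.43 on the log2(value + 4) scale, mRpL18 with 3.53, mRpS2 with 3.45, mRpL44 with 3.44, mRpS5 with 3.30 and mRpL32 with 3.24. In 5 of them the PR library was the low one, and mRpS5 was the exception. The order depends on the added constant: with 1, mRpL19 (4.25) took a place among the first 6 and mRpS5 left it, and with 16, mRpL37 (1.92) entered and mRpL44 (1.73) left. mRpL44, whose mammalian relative has an RNase III-like domain, was at 29.3, 23.4 and 13.7 units over the CC stages and listed at 0 in PRs.

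The 10 members listed at 0 did so in different libraries. In PRs alone these were mRpS2, mRpL44 and mRpL19, which was at 8.96, 10.1 and 11.1 units over the CC stages. In adult CCs alone they were mRpS18B, mRpS35, mRpS17 and mRpL34. mRpS18B was at 15.5 units in larvae, 17.3 in pupae and 28.2 in PRs, whereas the other 3 stayed at or under 7.76 units in every library. mRpS21 was at 0 in larvae alone, and at 2.32, 9.53 and 21.6 units in the other 3 libraries. mRpL11 and mRpS18C were each above 0 in a single library, at 5.70 units in pupae and 5.81 in PRs. Animals have 3 genes related to bacterial S18, and these had unlike patterns here. mRpS18A was at 23.9, 23.4, 2.56 and 8.30 units, so that mRpS18A and mRpS18B were both lowest in adult CCs, and mRpS18C was seen in PRs alone.

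The stalk of the large subunit, which recruits translation factors, is built on mRpL10 and mRpL12, with mRpL11 at its base. mRpL10 was at 13.1, 27.1, 20 and 5.64 units, and mRpL12 at 17.3, 17.5, 8.54 and 6.64. PRs were lowest for both, and mRpL11 was at 0 in every library but that of pupae. None of these 3 genes reached 32 units, and no call could be made.

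Around the exit of the tunnel, where the new protein leaves the ribosome, the members had unlike courses. mRpL22 was at 11.9, 11.0, 10.3 and 4.98 units, mRpL23 at 1.19, 2.48, 3.70 and 6.64, and mRpL45, a mitochondrion-specific protein that lies at the exit in mammals, at 8.36, 14.4, 12.8 and 18.3. mRpL22 was thus lowest and the other 2 highest in PRs, and mRpL24, given above, was the one of the group past a rule. mRpL22, mRpL23 and mRpL45 stayed under 32 units in every library. With 1 PR read at about 1.66 units, the PR values of mRpL22 and mRpL23 rest on few reads. Whether these courses exceed counting error was not tested. The gene of mRpL47, listed under its older symbol Rlc1 and so missed by the symbol pattern, was at 17.7, 24.9, 15.9 and 18.7 units.

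Members whose mammalian relatives have been linked to cell death include mRpS29 and mRpL37, given above, mRpS30 and mRpL41. mRpS30 was at 81.4, 81.7, 45.8 and 31.5 units, and mRpL41 at 13.1, 20.3, 7.69 and 26.6. For mRpS30 larvae and pupae were level and PRs lowest, while for mRpL41 adult CCs were lowest and PRs highest. All 4 had lower values in adult CCs than in pupal ones, as did 76.1% of the 71 members that differed. Only mRpL37 and mRpS29 passed a rule there, and against PRs mRpL37 was the single one called.

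The subunits were alike in level in larval and pupal CCs and in PRs, and further apart in adult CCs. The medians of the 46 large and 26 small subunit genes differed by 0.17, -0.04, 0.45 and 0.00 on the log2(value + 4) scale (large minus small), and the widest gap, in adult CCs, was between 11.1 and 7.22 units. Per kb the 4 differences were 0.17, -0.02, 0.37 and 0.01. The median differences of large and small subunit genes were 0.29 and 0.25 for pupal minus larval CCs, -0.36 and -0.67 for adult minus pupal CCs, and -0.35 and -0.47 for adult CCs minus PRs. Subunits follow the letter of the symbol, although in mammals the proteins named S30 and S18A lie in the large subunit. For adult CCs minus PRs the 42 members whose numbers follow a bacterial protein had a median of -0.11 and the 30 mitochondrion-specific ones -0.54. Within the large subunit these medians were 0.10 and -0.58, and within the small one -0.36 and -0.48. For adult minus pupal CCs the order was reversed, with -0.57 and -0.36, and for pupal minus larval CCs the medians were 0.23 and 0.34. Conserved ones of the large subunit made up 28 of all 72 members. They were 9 of the 19 at 32 units or more in adult CCs or PRs, and the difference in share was not tested. They included the 3 members 4-fold higher in adult CCs, each at 1 estimated read in PRs, and 1 of the 2 lower, mRpL33.

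Levels went with transcript length among the members in the CC libraries, as they did among all genes, but hardly in PRs. Pearson's r of log2 length and log2(value + 4) across the 72 genes was 0.50, 0.49, 0.35 and 0.13, and for 13336 genes above 0 it was 0.51, 0.60, 0.48 and 0.43. Without mRpS5 the values of the members were 0.48, 0.48, 0.30 and 0.06. The 50 members under 1 kb had medians of 10.1, 15.2, 8.54 and 15.8 units and the 22 longer ones 21.4, 21.3, 12.2 and 19.9. Per kb of the longest transcript, the highest mean levels were 134.7 units for mRpS5, 71.4 for mRpL9, 52.9 for mRpL20 and 51.8 for mRpL37, and the lowest were 1.94 for mRpL11 and 2.75 for mRpS18C.

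**Figure D3:**
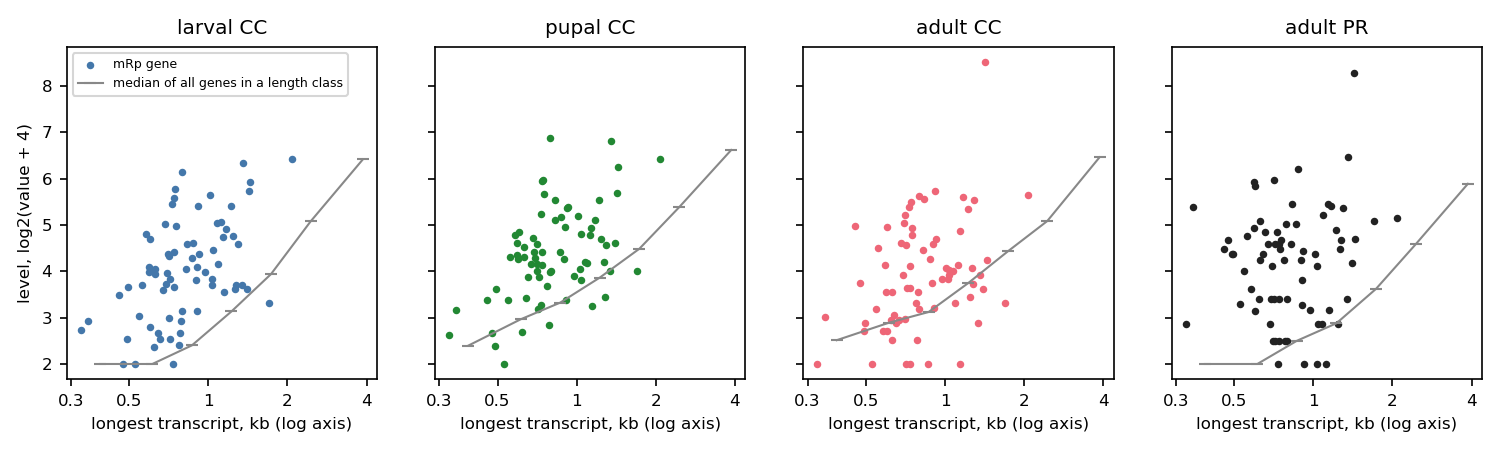
Level of each mRp gene on the log2(value + 4) scale against the length of its longest transcript in kb on a log axis, with 1 panel per library. The grey line gives the median of all genes above 0 in any library for each length class. Most mRp genes lie above the line for their length, and the rise with length is least clear in PRs. In larval CCs and PRs the line has a value of 2, or 0 units, in the length classes under 0.75 kb. Detected members of those classes lie above that value whatever their level.

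Other genes of mitochondrial translation were read in the same way. tko and bonsai, which encode the small subunit proteins S12 and S15, were at 22.0, 41.2, 35.9 and 28.0 units and at 22.0, 23.4, 9.82 and 39.7 units. The value of bonsai in adult CCs was past 2-fold below that in PRs, with a difference of -1.66, and tko passed no rule. Of 17 genes of mitochondrial translation factors and related proteins, 10, 12 and 7 reached 32 units in the 3 comparisons. The 4-fold rule called 0 of the 10 between larvae and pupae (11.2% of all genes were higher and 2.59% lower), 1 of the 12 lower in adult CCs than in pupal ones (13.5% of all genes), and 2 of the 7 higher in adult CCs than in PRs (21.9% of all genes). The medians of the 17 were 0.19, -0.77 and 0.27, beside 0.35, 0.00 and 0.33 for all genes. EfTuM, the elongation factor that brings charged tRNAs to the ribosome, was at 70.2, 81.7, 16.2 and 53.3 units, and so was lowest in adult CCs like mRpL37. The related gene mEFTu2 (listed as CG12736) ran the other way, at 22.4, 31.4, 47.8 and 6.64 units.

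Mitochondrial aminoacyl-tRNA synthetases charge the tRNAs for this ribosome. Of 16 such genes measured, 7, 6 and 5 could be called in the 3 comparisons. The 4-fold rule called 0 of them between larvae and pupae. Between pupal and adult CCs it called 1 gene in each direction (14.3% of all genes were higher in adults and 13.5% lower), and between adult CCs and PRs again 1 in each (21.9% and 11.5%). The medians of the 16 were 0.68, -0.82 and -0.49. The gene that was higher both times was Slimp, a relative of seryl-tRNA synthetase, at 14.3, 26.6, 124.8 and 6.64 units. AspRS-m, listed as CG31739, was at 370.3, 336.3, 72.1 and 100.2 units, so that both adult libraries were low, as for mRpS29.

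The proteins made by mitochondrial ribosomes join nuclear-encoded ones in the respiratory chain, and those nuclear genes differed in level from the mRp genes between the adult cell types. Of 88 nuclear genes of oxidative phosphorylation 67 reached 32 units in adult CCs or PRs. Of these 17 were 4-fold lower and 0 higher in adult CCs, and 46 were 2-fold lower, where 11.5%, 21.9% and 20.4% of all genes were called. The median of the 88 was -1.16, beside -0.44 for the mRp genes and 0.33 for all genes. Their summed level was 9094, 12156, 11601 and 25047 units. That was 7.14, 7.47 and 8.34 times the summed mRp level over the CC stages and 15.2 times in PRs. The mRp sums include mRpS5, which held 26.0% of the adult CC sum and 18.8% of the PR sum. Without mRpS5 the mRp sums were 1225, 1580, 1029 and 1335 units, so the ratios of both adult libraries, most of all adult CCs, depended on it. The mRp sum in PRs was like that of pupae with mRpS5, at 1643 and 1627 units, and lower without it. The median mRp gene was at 11.8, 15.7, 10.2 and 16.6 units, and that of oxidative phosphorylation at 30.5, 41.7, 53.2 and 180.5. Examples are the complex I gene ND-B12 (listed as CG10320), at 11.3, 14.6, 9.64 and 202.7 units, and SdhC of complex II, at 26.3, 31.1, 32.5 and 395.5.

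Between pupal and adult CCs the lists of mitochondrial translation had the lowest medians of those compared. The median was 0.21 for oxidative phosphorylation, 0.00 for the tricarboxylic acid cycle (15 genes), 0.00 for cytosolic ribosomal proteins and -0.24 for protein import (20 genes), beside -0.45 for the mRp genes, -0.77 for the translation factors and -0.82 for the synthetases. For adult CCs minus PRs the medians of the tricarboxylic acid cycle, import and cytosolic ribosomal genes were -0.85, -0.44 and -0.41, so the mRp genes stood close to the last 2. No gene of mitochondrial DNA was among the features analysed here, so the messages that these ribosomes read could not be set beside them.

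**Figure D4:**
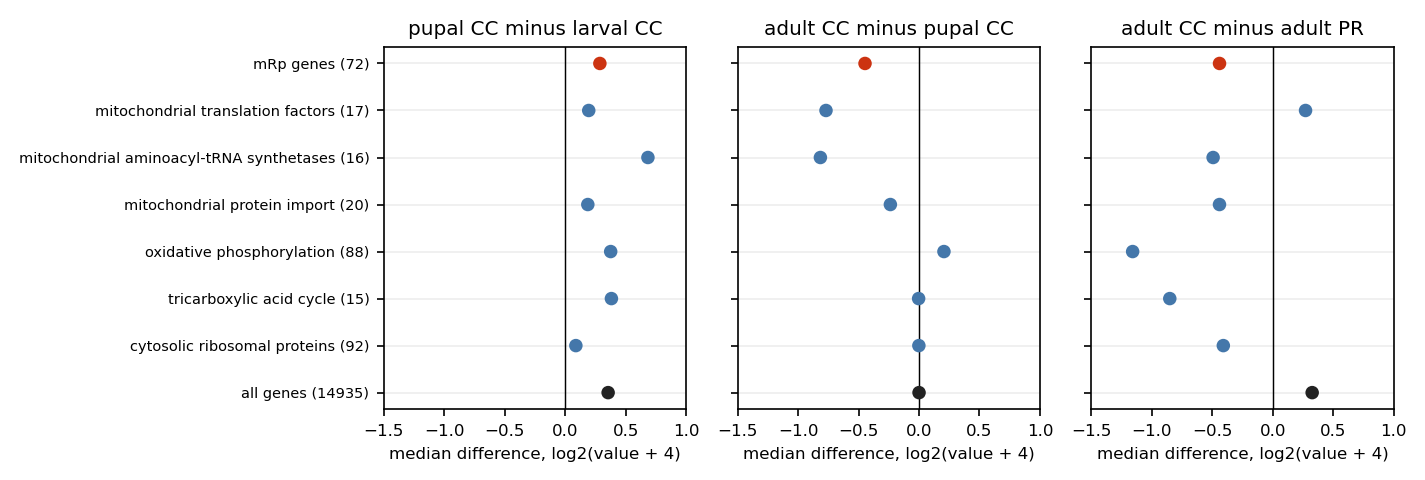
Median difference on the log2(value + 4) scale over all measured genes of each list, with the number of genes in brackets, in the 3 comparisons. Points to the left of 0 are lower in the library named first. The lists differ in level, and the added 4 shrinks differences of low values more than those of high ones. The mRp genes lie near all genes for larvae and pupae, below them for pupal and adult CCs, and between oxidative phosphorylation and all genes for adult CCs minus PRs.

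For genes that act on growth or on mitochondrial DNA the median of adult CCs minus PRs was positive, as was that of all genes at 0.33, or 0.67 for genes at 8 units or more. Of 15 growth and mitochondrial gene regulators 14 could be called, and 4 were 4-fold higher and 0 lower in adult CCs (21.9% and 11.5% of all genes), with a median of 0.90. The 4 included the cell cycle kinase gene Cdk4, at 45.7, 63.9, 186.9 and 4.98 units, and that of its partner cyclin CycD, at 160.2, 45.0, 153.7 and 8.30. Of 9 genes of mitochondrial DNA upkeep and transcription 6, 5 and 5 could be called in the 3 comparisons and 0 passed 4-fold, and the median of the 9 for adult CCs minus PRs was 0.97. One of them, TFAM, which packs mitochondrial DNA, was at 64 units in larvae, 33.7 in pupae, 32.5 in adult CCs and 11.6 in PRs.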

How the data were processed

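The authors sorted cells, amplified the RNA (NuGEN Ovation), prepared Nextera libraries, aligned reads to dm3 (TopHat2 2.0 and Bowtie 1.0 in the submitters' processing notes), and normalized counts by TMM. The deposited values are log2 normalized counts, with counts of 1 or less listed as 0; strand handling and the counting step are not given in the sources used here. They were taken to the linear scale (units). Of 14959 entries, 24 repeats, all at 0, were left out. No per-sample column was left unused. Depth was estimated from the spacing of the 6 most common values below 40 units; with a tolerance of 0.02 reads, 36.9% to 65.8% of values below 30 units came out whole, so no count test was run.

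Intervals are 95% exact Poisson or Clopper-Pearson intervals of estimated reads. Differences used log2(value + 4), calls 32 units or more in the higher library, filtered medians 8 units or more in either. The call rule was run on simulated reads with planted differences and counting error alone. That run held no variation between preparations or from amplification and does not bear on either. The members, lists and rules were chosen with earlier results of these data known. Members named are the 4 with the largest differences each way per comparison at 32 units or more, all past 4-fold, the 4 highest and 4 lowest in mean level, all listed at 0, the 6 that varied most against the median member, and 3 role groups; mRpS5 alone qualified for the least variable. mRpL42, mRpS34, mRpL55, mRpL20 and mRpS18A were named after their values were seen. Of the 72 members 69 matched the reference annotation (Ensembl release 115, BDGP 6) by ID and 3 (mRpS5, mRpL45 and mRpS34) by symbol. Lengths and overlaps come from that annotation, and no coordinates are given since its build differs. Python 3.11.15, numpy 2.4.6, pandas 2.3.3, scipy and matplotlib were used. Alternatives covered the added constant, 3 scalings, thresholds and membership.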

Additional observations from a re-analysis of the deposited data

How the results depend on the processing

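The mRp median against that of all genes kept its sign in all 3 comparisons under every alternative run. It moved beyond the 95% interval of the median (from order statistics) for larvae and pupae, to -0.26, when members whose exons overlap another gene were left out (an alternative added after the data were seen, like the limit of 16 units). The mRp median itself moved for pupal minus larval CCs to 0.028 with equal totals, 0.069 with equal totals without the most abundant genes, 0.10 with a median ratio of 0 and 0.13 without overlapped members, and for adult minus pupal CCs to -1.14 with equal totals and -0.89 without the most abundant genes. Equal totals multiply the libraries by 1.56, 1.26, 0.708 and 0.868.

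Counts of called members rest on few genes and moved more. For pupal minus larval CCs the 2-fold count of 1 higher was 2 with a constant of 1 or a limit of 16 units, 8 with no limit, and 0 with a constant of 16, a limit of 64 units, any of the 3 other scalings or no overlapped members, and the count of 0 lower was 1 with each of those scalings. For adult minus pupal CCs the 4-fold count of 2 lower was 1 with a constant of 16 or no overlapped members and 5 with a limit of 16 units or none. The 2-fold count of 1 higher was 2 with a constant of 1 or a limit of 16 units and 3 with none, and that of 5 lower was 3 with a constant of 16 or a limit of 64 units, 2 without overlapped members, 9 and 12 with equal totals without and with the most abundant genes, 11 with a limit of 16 units and 18 with none. For adult CCs minus PRs the 4-fold count of 3 higher was 0 with a constant of 16, a limit of 64 units or no overlapped members, 1 with either form of equal totals and 5 with no limit, and that of 2 lower was 0 with a constant of 16, 1 with a limit of 64 units, 4 with a constant of 1, 5 with equal totals without the most abundant genes and 8 with a median ratio of 0. The 2-fold count of 4 higher was 0 with 64 units, 1 with equal totals without the most abundant genes or without overlapped members, 2 with equal totals or a median ratio of 0, 7 with 16 units and 11 with no limit, and that of 6 lower was 2 with 64 units or without overlapped members, 14 with a median ratio of 0, 16 with 16 units and 19 with no limit. The cause was not tested beyond the settings themselves.

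Shares of the total rose to 0.117%, 0.125%, 0.0787% and 0.129% without the 100 most abundant genes of any library, which puts PRs first, and to 0.0914%, 0.0950%, 0.0535% and 0.0782% without the 10 most abundant of each. The subunit gaps held per kb. The 4-fold count of 1 higher in adult than in pupal CCs was 1 under every alternative run. The limit of 64 units does not enter the medians, so it was not run for them. With 1 library per condition, leaving out a replicate could not be fitted. No paired analysis was possible because each condition has 1 library and no replicate number pairs them.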

Other observations

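mRpS5 lies among the last measured genes of arm 3L in the order of the reference annotation, and the neighbouring genes were looked at after its values were seen. Of 10 measured neighbours 4 reached 32 units in a library. CG17698 was at 52.7, 113.6, 665.2 and 674.2 units in larval, pupal and adult CCs and PRs, and CG40045 at 49.3, 87.2, 204.8 and 444.0, so both were higher in both adult libraries than in the younger ones, as mRpS5 was. The other 2 were highest in PRs, Snap25 at 5.97, 43.6, 22.8 and 936.8 units and nvd at 0, 0, 2.94 and 33.2. The cytosolic ribosomal protein gene RpL38 had the largest difference of its list between pupal and adult CCs, 2.70, and was at 28.1, 43.7, 306.2 and 949.3 units.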
